A study of Mus musculus with 6 samples.

Results

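*Gpd1*, *Gpam*, *Lpin1* and *Dgat1* encode enzymes that make glycerol-3-phosphate and build triglyceride from it, and their rows were taken by gene name, 4 of the 4864 genes analysed here. RNA was sequenced from cultures of ADSCs, stem cells that can become fat cells, taken from the subcutaneous fat of wild type mice. The cultures had undergone primary adipocyte differentiation and form a Control and an NJT-2 group, with 3 libraries per group. The paper describes them as differentiated adipocytes that received vehicle or NJT-2, and does not say when NJT-2 was added to the sequenced cultures. Both groups received the same differentiation medium of dexamethasone, insulin, 3-isobutyl-1-methylxanthine, indomethacin and triiodothyronine, and the study harvests mature adipocytes on differentiation day 8. NJT-2 is saikosaponin A, a plant terpenoid studied as a ligand of the nuclear receptor PPARγ, and 200 nM is its concentration in this cell model, although none is stated for the sequenced cultures separately. The ADSCs came from male C57BL/6J mice, the labels do not say whether libraries of a group came from separate animals or cultures, and a primary culture of this kind can also hold fibroblasts, endothelial cells and macrophages. The p-values therefore measure the spread between these libraries, which may be technical.

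Fat is stored as triglyceride, a glycerol backbone that carries fatty acids on its 3 positions. In adipocytes the backbone comes mainly from dihydroxyacetone phosphate, an intermediate of glucose breakdown, which GPD1 in the cytosol reduces to glycerol-3-phosphate. GPAM, on the outer mitochondrial membrane, attaches the first fatty acid, an acyltransferase of the AGPAT family attaches the second, LPIN1 removes the phosphate from the resulting phosphatidic acid to give diacylglycerol, and DGAT1 or the unrelated enzyme DGAT2 attaches the last fatty acid. LPIN1 also acts in the nucleus as a partner of transcription factors. Genes of this pathway rise as preadipocytes become fat cells.

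The deposited table gives the 4 genes on GRCm38. *Gpd1* (ENSMUSG00000023019) lies on chromosome 15 from 99717515 to 99725005 on the plus strand. *Gpam* (ENSMUSG00000024978) lies on chromosome 19 from 55067268 to 55127216, *Lpin1* (ENSMUSG00000020593) on chromosome 12 from 16535669 to 16646966 and *Dgat1* (ENSMUSG00000022555) on chromosome 15 from 76502015 to 76511951, all on the minus strand. In the mouse annotation GENCODE M21, *Gpd1* has the same ends and 3 transcripts, while the ends of the other genes differ from the deposited ones, most for *Lpin1*, which in M21 ends at 16610966. The exons of *Gpd1* share 384 bases with the antisense transcript *Gm16537*. The libraries mark the strand, but whether the counting used it is not given in the sources used here, so reads from this stretch cannot be assigned to one of them. No other gene in M21 shares exon bases with the 4 genes.

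Promoter sequences are shown for *Lpin1* and *Gpam*, since of the 4 genes only these 2 have entries among the RefSeq promoters of GRCm38.p6. Each line gives the 250 bases before a RefSeq start site, 5′ to 3′ on the minus strand, and capitals mark the matches to the motifs named after them.
*Lpin1*, chr12:16610967-16611216: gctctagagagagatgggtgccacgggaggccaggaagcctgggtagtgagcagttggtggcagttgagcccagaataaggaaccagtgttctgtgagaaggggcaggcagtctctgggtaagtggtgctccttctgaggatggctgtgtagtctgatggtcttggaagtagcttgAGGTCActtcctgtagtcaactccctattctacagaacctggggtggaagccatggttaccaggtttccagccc
*Gpam*, upstream start, chr19:55127239-55127488: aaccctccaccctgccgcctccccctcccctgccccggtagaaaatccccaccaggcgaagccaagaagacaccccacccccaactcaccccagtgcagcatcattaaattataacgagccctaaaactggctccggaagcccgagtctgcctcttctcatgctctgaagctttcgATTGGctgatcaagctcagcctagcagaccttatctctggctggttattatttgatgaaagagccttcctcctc
*Gpam*, downstream start, chr19:55099478-55099727: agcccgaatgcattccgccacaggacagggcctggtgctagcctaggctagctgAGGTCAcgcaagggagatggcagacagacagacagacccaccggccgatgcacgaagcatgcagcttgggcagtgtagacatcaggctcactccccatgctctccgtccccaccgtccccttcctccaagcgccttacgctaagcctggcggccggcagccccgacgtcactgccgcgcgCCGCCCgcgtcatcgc

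The *Lpin1* start lies 36000 bases downstream of the 5′ end of the deposited gene, and the downstream *Gpam* start 27739 bases. The windows were searched on both strands for 8 motifs. AGGTCA is the core read by many nuclear receptors, and it stood once before the *Lpin1* start, with its first base 74 bases upstream, and once before the downstream *Gpam* start, 196 bases upstream. Of all 32851 RefSeq promoter windows of this length, 14% held AGGTCA. The direct repeat of this core with 1 base between the copies, the textbook element of PPARγ with its partner RXR, was in none of the 3 windows and in 0.0335% of all windows. The CCAAT box, on the other strand, stood 74 bases before the upstream *Gpam* start (33.8% of all windows), and the GC box GGGCGG, also on the other strand, 16 bases before the downstream one (32.7%). The windows did not hold the E-box CACGTG (6.02% of all windows), the TATA box TATAAA (12.4%), the C/EBP site TTGCGCAA (0.164%) or the cyclic AMP response element TGACGTCA (1.55%). A match is a run of letters in these windows and not a measured binding site.

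The counts of the analysed genes summed to between 16093037 and 28929673 per library, 27.7% to 32.4% of the library totals that the FPKM values imply. Of the 3705 genes tested with edgeR's quasi-likelihood test, 26 were called, meaning a Benjamini-Hochberg adjusted p under 0.05 together with a change of more than 1 on the log2 scale. A library in each group stood apart over these genes. By the Euclidean distance of log2(FPKM + 1) values, Control replicate 1 was at 53.8 and 71.3 from the other two Control libraries, themselves separated by 27.7, and NJT-2 replicate 2 was at 58.0 and 55.3 from the other two NJT-2 libraries, themselves separated by 11.8. The fold changes of the 4 genes, the ratios between them and the calls in the gene lists are therefore also given without these libraries, and the other values are over all 6. FPKM is the count divided by the gene's length and the library's total, so that it can be compared between genes. In RNA from whole cultures, fewer cells of a type and less RNA per cell cannot be told apart.

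With NJT-2, the dehydrogenase gene *Gpd1* and the phosphatase gene *Lpin1* rose, and the acyltransferase genes *Gpam* and *Dgat1* did not pass the test. The log2 fold changes were 5.76 and 3.12 for the former, which were called, and 1.62 and 0.99 for the latter. Both calls in edgeR were lost when any of 5 of the 6 libraries was left out. So 2 of the 4 genes were called, where 0.702% of all tested genes were called and 0.567% were called higher. DESeq2 on the same counts called the same 2 genes and 7.8% of all tested genes, and voom with sample quality weights called all 4 and 19.6%. *Gpd1* and *Lpin1* did not overlap between the groups in FPKM, which held for 25.9% of all tested genes and, with NJT-2 above Control, for 14.4%. The median log2 fold change was 2.37 over the 4 genes and 0.020 over all tested genes. The 4 genes were chosen with earlier results of these data known, so these shares and medians are descriptions and not a test.

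*Gpd1*, which supplies the glycerol backbone, had 98, 120 and 238 counts in Control and 16644, 1535 and 9645 counts with NJT-2, each in the order of replicates 1, 2 and 3, an order kept in all such sentences. In FPKM this was 0.57, 0.45 and 1.13 against 79.2, 7.40 and 46.6, a mean of 0.717 ± 0.363 (SD, n = 3) for Control and 44.4 ± 36.0 (SD, n = 3) for NJT-2. The groups did not overlap, and the lowest NJT-2 library was 6.55-fold above the highest Control library. The log2 fold change of *Gpd1* was 5.76 ± 0.90 (SE), or 54.2-fold, with an adjusted p of 0.0432 in edgeR. Within the NJT-2 group *Gpd1* ranged 10.7-fold, with replicate 2 the lowest. Against the Control mean, the NJT-2 libraries were 110.6-fold, 10.3-fold and 65.0-fold higher in FPKM. *Gpd1* moved from between the 3.70 and 12.9 percentile of the tested genes in Control to the 95.1, 54.6 and 90.9 percentile with NJT-2.

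*Gpam*, the acyltransferase that opens glycerolipid synthesis, had an FPKM of 13.8, 14.5 and 23.2 in Control and of 88.5, 7.84 and 85.2 with NJT-2. NJT-2 replicates 1 and 3 lay above every Control library and NJT-2 replicate 2 below every one, so that the groups overlapped. The means were 17.2 ± 5.28 for Control and 60.5 ± 45.6 for NJT-2 (SD, n = 3 each), and the difference did not exceed the spread between replicates (1.62 ± 0.76 (SE) on the log2 scale, adjusted p = 0.299 in edgeR). Without NJT-2 replicate 2, the log2 fold change of *Gpam* was 2.13 and it was called (adjusted p = 0.0373 in edgeR, with 2.02% of genes called). Without Control replicate 1 it was 1.62 and was not called (adjusted p = 0.485 in edgeR).

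*Lpin1*, the phosphatidate phosphatase, had an FPKM of 1.09, 1.89 and 2.81 in Control and of 24.1, 11.2 and 19.4 with NJT-2. All NJT-2 libraries lay above all Control libraries, the lowest 3.99-fold above the highest Control library. The means were 1.93 ± 0.861 and 18.2 ± 6.51 (SD, n = 3 each). The log2 fold change of *Lpin1* was 3.12 ± 0.40 (SE), or 8.68-fold, with an adjusted p of 0.0270 in edgeR and the smallest standard error of the 4 genes. NJT-2 replicate 2 was again the lowest of its group, but *Lpin1* ranged only 2.15-fold among the NJT-2 libraries, against 10.7-fold for *Gpd1*, 11.3-fold for *Gpam* and 6.96-fold for *Dgat1*.

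*Dgat1*, which completes the triglyceride, had an FPKM of 25.9, 14.5 and 9.71 in Control and of 67.0, 9.62 and 52.1 with NJT-2. As with *Gpam*, NJT-2 replicates 1 and 3 were above every Control library, while replicate 2, at 9.62 FPKM, was just below the lowest, at 9.71 FPKM. This pattern in FPKM was seen in 4.37% of all tested genes. For *Dgat1* it turned with the scaling, since on the log2 CPM scale with TMM factors, relative to the Control mean, NJT-2 replicate 2 (-0.77) lay above Control replicate 3 (-0.90), while for *Gpam* it stayed the lowest library (-1.18). The means were 16.7 ± 8.33 and 42.9 ± 29.8 (SD, n = 3 each), and the log2 fold change of 0.99 (standard error 0.76) did not pass the test (adjusted p = 0.462 in edgeR). Control replicate 1, which stood apart over all genes, was the highest Control library for *Dgat1* and the lowest for *Gpam* and *Lpin1* in FPKM. On the log2 CPM scale, relative to the Control mean, it stayed the highest for *Dgat1* (1.19) and the lowest for *Lpin1* (-0.28). For *Gpam* it was at 0.16 on that scale, above Control replicate 2 (-0.40). *Dgat1* had a log2 fold change of 1.77 without Control replicate 1 and 1.45 without NJT-2 replicate 2, not called in either (adjusted p = 0.372 and 0.298 in edgeR).

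**Figure D1:**
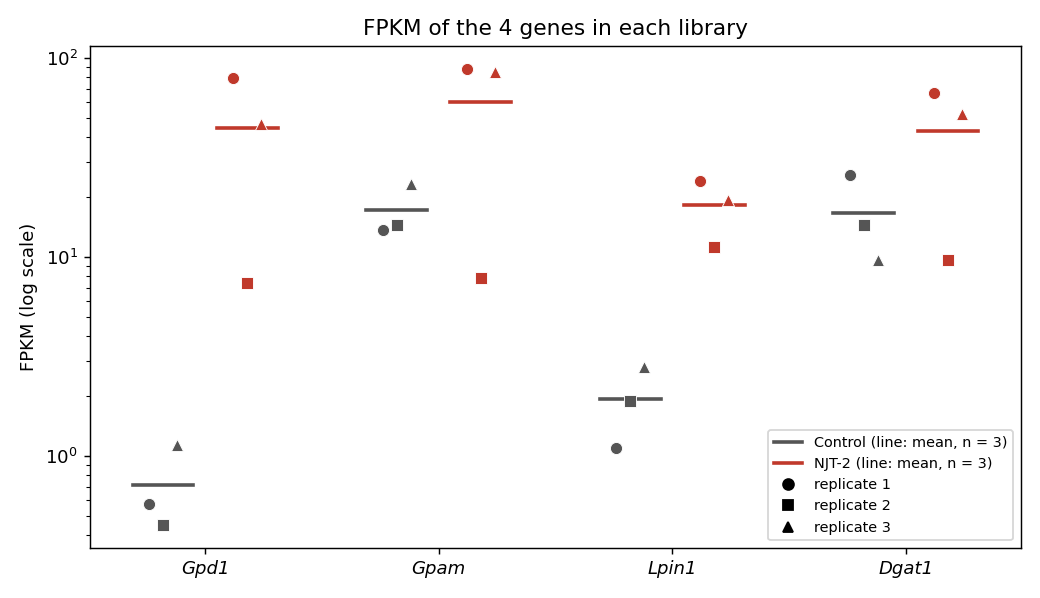
FPKM on a log axis of *Gpd1*, *Gpam*, *Lpin1* and *Dgat1* in the 3 Control (grey) and 3 NJT-2 (red) libraries, with a symbol per replicate and a line at the group mean. For *Gpd1* and *Lpin1* every NJT-2 library is above every Control library, while for *Gpam* (7.84) and *Dgat1* (9.62) NJT-2 replicate 2 is below the lowest Control library.

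The calls of *Gpd1* and *Lpin1* depended on single libraries, although their directions did not. When 1 library at a time was left out, *Gpd1* stayed between 5.04 and 6.26 on the log2 scale and *Lpin1* between 2.88 and 3.34, and both were called only without NJT-2 replicate 2. Without any of the other libraries, the adjusted p in edgeR was between 0.0851 and 0.3 for *Gpd1* and between 0.0744 and 0.243 for *Lpin1*, and between 0 and 4 genes in all were called. With Control replicate 1 and NJT-2 replicate 2 both left out, a setting added once the data had been seen, all 4 genes were called, with log2 fold changes of 6.33 for *Gpd1*, 2.2 for *Gpam*, 3.21 for *Lpin1* and 2.29 for *Dgat1*. In that fit, over 2 libraries per group, 13% of all tested genes were called. Of the lists described below, it called 7 of 7 tested adipocyte markers and 4 of 5 regulators, *Pparg* among them. It also called 3 of 5 preadipocyte and fibroblast, 2 of 3 macrophage, 2 of 3 proliferation and 1 of 2 smooth muscle and pericyte markers. Of the glycerolipid list it called 1 of 7, and it called no endothelial marker and not *Dio2*.

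**Figure D2:**
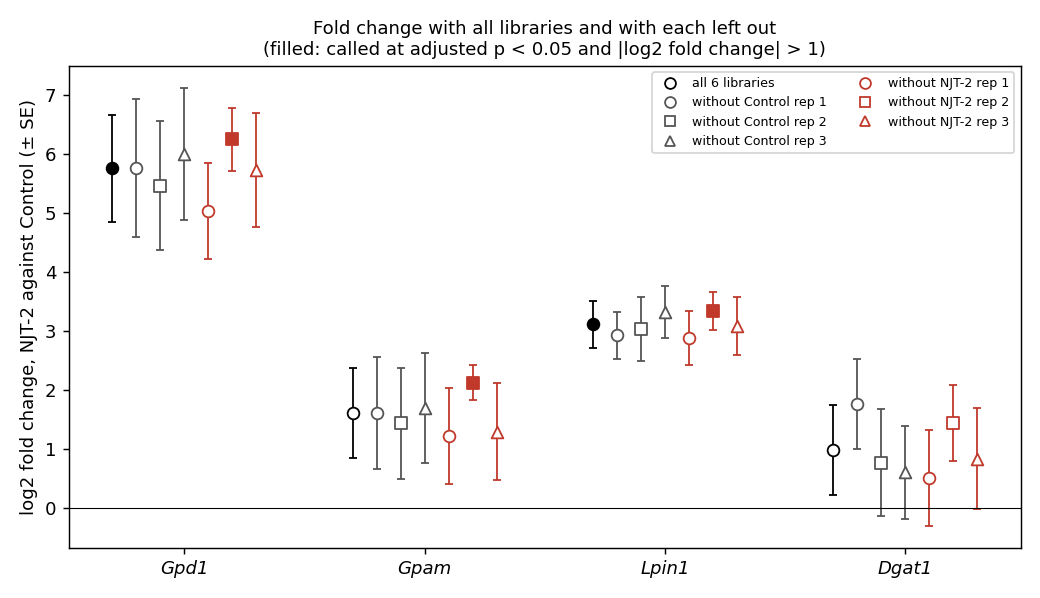
The log2 fold change of NJT-2 against Control with its standard error (edgeR) for each of the 4 genes, over all 6 libraries (black) and with each Control (grey) or NJT-2 (red) library left out, where filled symbols are called. All values are above 0, from 0.51 for *Dgat1* without NJT-2 replicate 1 to 6.26 for *Gpd1* without NJT-2 replicate 2, and *Gpam* is called only without NJT-2 replicate 2.

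The order of the levels in FPKM changed between the groups. In Control, *Gpam* and *Dgat1* were the highest and did not differ beyond their spread, *Lpin1* followed and *Gpd1* was the lowest in every library. With NJT-2, the means ran from *Gpam* through *Gpd1* and *Dgat1* to *Lpin1*, and no neighbours in this order differed beyond their spread. The 3 NJT-2 libraries had 3 different orders. *Gpam* was the highest and *Lpin1* the lowest in replicates 1 and 3, while in replicate 2 *Lpin1* was the highest and *Gpd1*, as in every Control library, the lowest. Of the summed FPKM of the 4 genes, *Gpd1* made up 1.38%, 1.44% and 3.06% in Control and 30.6%, 20.5% and 22.9% with NJT-2. The share of *Lpin1* was 2.64%, 6.03% and 7.62% in Control and 9.29%, 31.1% and 9.55% with NJT-2. The sum itself was 41.3, 31.3 and 36.9 FPKM in Control and 258.8, 36.1 and 203.4 FPKM with NJT-2. NJT-2 replicate 2 thus had a sum within the Control range with a make-up that none of the Control libraries had.

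**Figure D3:**
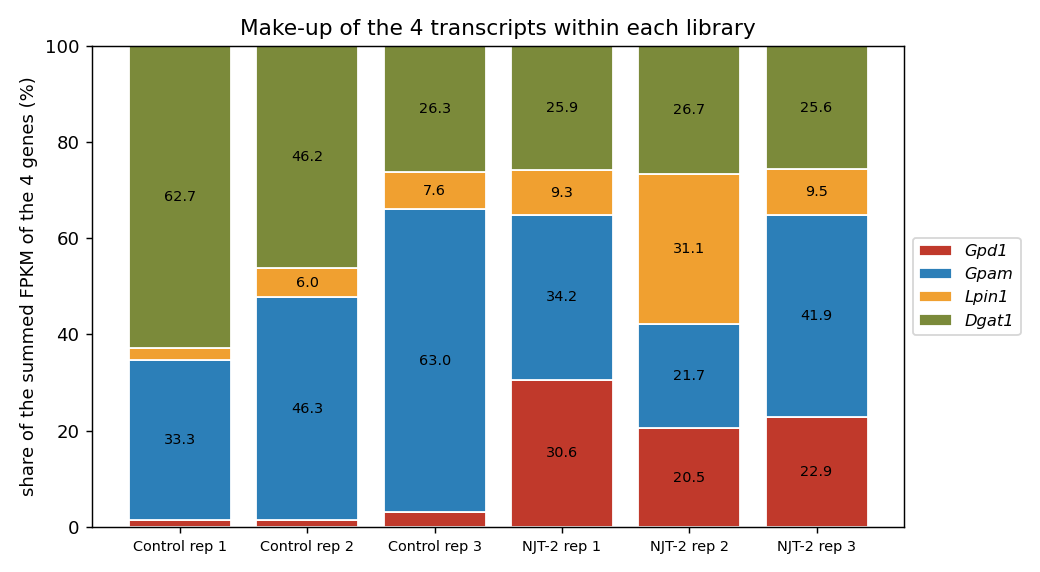
Stacked bars of the share (%) that each of the 4 genes has in their summed FPKM, for each library. *Gpd1* takes at most 3.06% in a Control library and at least 20.5% in an NJT-2 library, and *Lpin1* is the largest part, with 31.1%, in NJT-2 replicate 2 alone.

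A ratio of 2 genes within a library does not depend on how the libraries are scaled, and the log2 FPKM ratios of the 6 pairs of genes were compared between the groups. The log2 ratio of *Gpd1* to *Gpam* was -4.59, -5.01 and -4.36 in Control and -0.16, -0.083 and -0.87 with NJT-2, a difference of 4.28. It was as large in NJT-2 replicate 2 as in the others of its group. The log2 ratio of *Gpd1* to *Dgat1* was 4.44 higher with NJT-2, that of *Gpd1* to *Lpin1* 2.24 higher and that of *Lpin1* to *Dgat1* 2.205 higher, while that of *Gpam* to *Lpin1* went from 3.22 ± 0.387 in Control to 1.17 ± 1.46 (SD, n = 3 each), a difference of -2.05. Without NJT-2 replicate 2 the difference for *Gpam* to *Lpin1* was -1.21, and without Control replicate 1 that for *Lpin1* to *Dgat1* was 1.47. Without Control replicate 1, the differences for *Gpd1* to *Gpam*, *Dgat1* and *Lpin1* were 4.32, 3.96 and 2.49. Without NJT-2 replicate 2 they were 4.14, 4.58 and 2.93. Over all 6 libraries these 5 ratios did not overlap between the groups, and each had p = 0.1 (two-sided exact permutation test), the smallest that 3 against 3 libraries allow, and an adjusted p of 0.12 over the 6 pairs. The 6 ratios come from 4 genes and are not independent, and the share of other gene pairs without overlap was not computed. The gap was narrow for *Lpin1* to *Dgat1* (-1.79 in Control replicate 3, -1.48 in NJT-2 replicate 1). It was also narrow for *Gpd1* to *Lpin1* (-0.94 in Control replicate 1, -0.60 in NJT-2 replicate 2). The log2 ratio of *Gpam* to *Dgat1*, the first and the last acylation, was 0.12 ± 1.09 in Control and 0.27 ± 0.515 with NJT-2 (SD, n = 3 each) and overlapped (p = 0.9, exact permutation test).

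The rest of the pathway was described with a list of 36 genes of glycerolipid synthesis, of which 9 were measured here and 7 were tested. Of the 7, 3 were higher and 4 lower with NJT-2, where 50.8% of all tested genes were higher. None was called by edgeR, and DESeq2 called 1, where it called 7.8% of all tested genes. In edgeR, 1 had an unadjusted p under 0.05, which 17.8% of all tested genes had. Their median log2 fold change was -0.30, beside 0.020 over all tested genes, and without Control replicate 1 it was 0.12, with 4 of the 7 higher. *Gk*, the kinase that makes glycerol-3-phosphate from free glycerol, had the largest fold change of the 7 tested genes. It had 76, 594 and 1012 counts in Control and 2633, 1439 and 2417 counts with NJT-2, without overlap (2.04 ± 0.66 (SE) on the log2 scale, adjusted p = 0.201 in edgeR). *Gk* was not called without Control replicate 1 or NJT-2 replicate 2 alone. It was called without both (log2 fold change 1.79), where 13% of all tested genes were called.

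The remaining tested genes of the list overlapped between the groups. *Lpin2*, a phosphatidate phosphatase of the same family as *Lpin1*, had an FPKM of 1.14, 1.48 and 2.27 in Control and of 1.9, 3.77 and 2.25 with NJT-2, with its highest value in NJT-2 replicate 2 (log2 fold change 0.58, adjusted p = 0.415 in edgeR). In Control, *Lpin1* and *Lpin2* had like levels in FPKM (means of 1.93 and 1.63), and with NJT-2 the means were 18.2 and 2.64. *Agpat3* and *Agpat4*, of the family that attaches the second fatty acid, had log2 fold changes of 0.37 and -0.79 (adjusted p = 0.519 and 0.373 in edgeR). *Plpp1*, a lipid phosphate phosphatase, had -0.40, *Ctdnep1*, the phosphatase that acts on lipins, -0.79, and *Tpi1*, which interconverts dihydroxyacetone phosphate and glyceraldehyde-3-phosphate, -0.30, with adjusted p-values of 0.484, 0.333 and 0.743 in edgeR. Below the filter of a mean FPKM of 0.5, the acyltransferase gene *Awat1* had 0, 0 and 4 counts in Control and 37, 24 and 14 with NJT-2, and *Fitm1*, of a lipid droplet protein, had at most 16 counts in any library. The other 27 genes of the list, *Dgat2* among them, were not analysed here.

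The deposited Gene Ontology annotation gave further members, a list taken after the values were seen. Of the 7 genes annotated to the triglyceride biosynthetic process, 6 were tested, all 6 were higher with NJT-2 (50.8% of all tested genes), and 1, *Lpin1*, was called (0.702%). Of the 6, 3 are the *Lpin1*, *Gpam* and *Dgat1* described above, and beside *Lpin2* the others are *Acsl1*, which activates fatty acids to acyl-CoA, and *Lpl*, which releases fatty acids from circulating triglyceride. *Acsl1* had an FPKM of 0.92, 2.60 and 3.51 in Control and 154.8, 9.36 and 122.0 with NJT-2 (log2 fold change 5.24, adjusted p = 0.0775 in edgeR), and *Lpl* a log2 fold change of 2.04 (adjusted p = 0.200). For both, the NJT-2 libraries lay above the Control libraries in FPKM, with replicate 2 the lowest. Without NJT-2 replicate 2, *Lpin1*, *Gpam* and *Acsl1* were called (2.02% of all tested genes), and without Control replicate 1 none of the 6 was (0.027%).

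Regulators of lipid synthesis were set beside the 4 genes, of which 6 of 7 were measured and 5 tested. *Mlxipl*, which encodes the glucose-responsive factor ChREBP, was called higher (0.567% of all tested genes), with an FPKM of 0.14, 0.16 and 0.24 in Control and of 6.51, 1.82 and 5.29 with NJT-2 (4.45 ± 0.57 (SE) on the log2 scale, adjusted p = 0.0270 in edgeR). Its Control mean of 0.18 FPKM was below the filter, which it passed through the NJT-2 libraries. *Pparg*, the master factor of fat cell formation and the receptor NJT-2 was studied for, had 1.06, 5.68 and 6.41 in Control and 37.3, 13.01 and 33.7 FPKM with NJT-2, without overlap but not called (log2 fold change 2.62, adjusted p = 0.119 in edgeR). *Nr1h3* (LXRα) had a log2 fold change of 1.85 and *Srebf1* (SREBP1) of 1.003, with adjusted p-values of 0.185 and 0.253, and *Rxra*, the partner of PPARγ, of 0.0051 (adjusted p = 0.995). *Ppara*, below the filter, had 0, 12 and 23 counts in Control and 416, 85 and 255 with NJT-2. The call of *Mlxipl* held without NJT-2 replicate 2 (log2 fold change 4.81) and was lost without Control replicate 1 (4.45, adjusted p = 0.0902 in edgeR). Of all tested genes, 2.02% were called in the former fit and 0.027% in the latter.

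**Figure D4:**
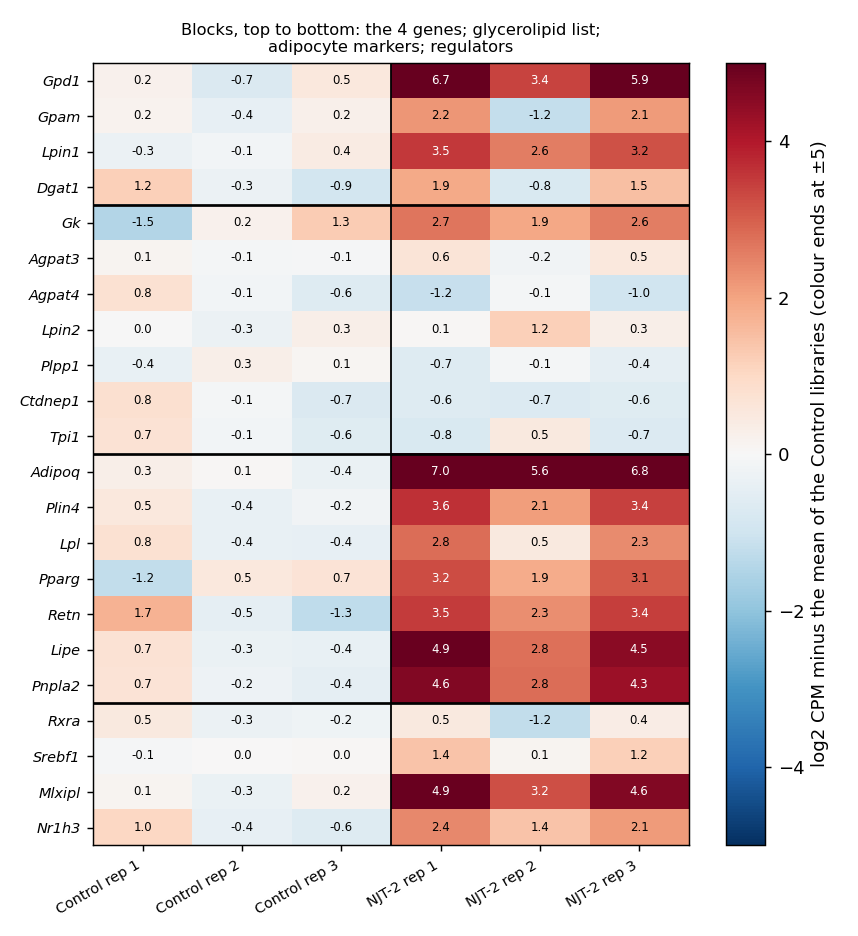
Log2 CPM of each gene in each library minus the mean of the 3 Control libraries, with rows for the 4 genes, the tested genes of the glycerolipid list, adipocyte markers and regulators, and columns for the libraries. In NJT-2 replicate 2, *Gpam* (-1.18) and *Dgat1* (-0.77) are below the Control mean while *Gpd1* (3.37), *Lpin1* (2.55) and the adipocyte marker *Adipoq* (5.56) are above it.

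Markers of fat cells were also higher with NJT-2. Of 13 adipocyte markers, 7 were measured, and all 7 were higher with NJT-2 without overlap in FPKM, which 14.4% of all tested genes were, and 4 (*Adipoq*, *Plin4*, *Lipe* and *Pnpla2*) were called higher, which 0.567% of all tested genes were. Their median log2 fold change was 3.13. Without NJT-2 replicate 2 the same 4 were called (2.02% of all tested genes), and without Control replicate 1 none was (0.027% of all tested genes). In NJT-2 replicate 2 the 7 markers were above the Control mean on the log2 CPM scale, unlike *Gpam* and *Dgat1*. On that scale *Lpl* in this library (0.485) was below Control replicate 1 (0.78). The summed FPKM of the 7 was between 80.8 and 104.8 in Control and between 274.0 and 1171 with NJT-2, with replicate 2 the lowest. *Adipoq*, the adiponectin gene and a defining marker of mature fat cells, was at 0.38, 0.50 and 0.39 FPKM in the Control libraries, low for cultures labelled as differentiated adipocytes, and at 64.6, 22.0 and 58.5 FPKM with NJT-2. *Adipoq* and the marker *Retn*, with Control means of 0.42 and 0.43 FPKM, passed the filter of 0.5 through the NJT-2 libraries.

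NJT-2 replicate 2 was compared with replicates 1 and 3 on the log2 CPM scale. The difference was -2.90 for *Gpd1*, -3.33 for *Gpam*, -0.81 for *Lpin1* and -2.48 for *Dgat1*. The median of this difference was -1.42 over the adipocyte markers and -0.10 over all tested genes. In this library 3 of the 4 genes were thus further below the other NJT-2 libraries than the median adipocyte marker was, and *Lpin1* was less so. Such a drop was not particular to these genes, as *Acsl1* was at 9.36 FPKM in this library and at 154.8 and 122.0 FPKM in replicates 1 and 3. Over the 7 tested genes of the glycerolipid list the median difference was 0.46. These are descriptions of a single library.

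Other cell types were checked in the same way. Of 10 macrophage markers 3 were measured, with a summed FPKM of 9.67 to 12.7 in Control and 31.2 to 56.8 with NJT-2. Of the 3, 1 was called higher (0.567% of all tested genes), *Adgre1*, which defines mouse macrophages (log2 fold change 3.23, adjusted p = 0.0408 in edgeR). *Cd68* was not called (1.79, adjusted p = 0.0820 in edgeR), and *Csf1r* overlapped between the groups (0.025, adjusted p = 0.974 in edgeR). Of 12 preadipocyte and fibroblast markers 5 were measured, with sums of 227.3 to 999.2 in Control and 443.6 to 487.5 with NJT-2, and all 5 were lower (49.2% of all tested genes). Of the 5, 1, *Pi16*, was called lower (0.135% of all tested genes). The calls of *Adgre1* and *Pi16* held without NJT-2 replicate 2 and were lost without Control replicate 1 (adjusted p = 0.108 and 0.0617 in edgeR). The former fit called 2.02% of all tested genes and the latter 0.027%. The 3 of 6 proliferation markers had sums of 30.2 to 40.9 in Control and 15.5 to 21.4 with NJT-2. The 2 of 5 smooth muscle and pericyte markers had 11.3 to 13.8 and 2.72 to 4.04, and the 2 of 6 endothelial markers 0.40 to 2.11 and 1.30 to 2.42. In edgeR over all 6 libraries, no marker of these types was called. Of 7 brown and beige fat markers 3 were measured and 1 was tested, *Dio2*, which was lower and not called (log2 fold change -1.34). *Cox8b* and *Cidea*, below the filter, had no counts in Control. With NJT-2, *Cox8b* had 31, 4 and 16 counts and *Cidea* 9, 4 and 0. None of these markers was at 0 in all libraries. The part of the cell make-up in the differences of the 4 genes was not tested.

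For each of the 4 genes, the 3 genes with the most similar profile were found by the root mean square difference of log2 CPM profiles over the 6 libraries, each centred on its own mean. For *Gpd1* they were the aldehyde dehydrogenase gene *Aldh1a7* (0.648), *Acsl1* (0.698) and *Mlxipl* (0.729). *Dbt*, of branched-chain amino acid breakdown (0.312), the amino acid transporter gene *Slc1a5* (0.393) and the glycolysis regulator gene *Pfkfb1* (0.404) were nearest to *Gpam*. *Fhl1* (0.194), *Ms4a6d* (0.231) and *Lcp1* (0.233), the last an actin-bundling protein gene of leukocytes, were nearest to *Lpin1*. Nearest to *Dgat1* were *Paox* (0.362), *Paqr4* (0.416) and *Dnajc15* (0.426). Among the 4 genes themselves, *Gpam* and *Dgat1* were the closest pair (0.701) and *Gpd1* and *Dgat1* the farthest (2.33), so that 50 genes were nearer to *Gpam* than *Dgat1* was.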

How the data were processed

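Per the labels, mRNA was purified from total RNA and strand-marked libraries were sequenced as paired reads. The submitters' processing notes name cutadapt 1.9, HISAT2 2.2.1 and StringTie 2.1.6, with the genome GRCm38, and the paper's methods compare the groups with DESeq2. The counting tool and annotation release are not given in the sources used here. The authors deposited raw read counts and FPKM values per gene, which they computed as the count divided by a gene length and a library total. The analysed part of the table holds the 4864 genes with the lowest Ensembl numbers, all of them in GENCODE M21, and its last line, which is incomplete, was dropped. The library totals were worked out from FPKM and counts of genes with a single transcript.

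The counts were tested in R 4.3.3 with edgeR 4.0.16 (quasi-likelihood test, TMM factors, a mean FPKM over the 6 libraries of 0.5 or more), and standard errors are the log2 fold change divided by the square root of F. Limma 3.58.1, DESeq2 1.42.0, other filters and scalings, a replicate block and leaving out each library were alternatives. On simulated counts for this comparison over 3705 genes, 175 of 200 genes set to change by 3 on the log2 scale were recovered, with 7 false calls. The share recovered from the sequenced libraries, where a library in each group stood apart, was not tested. Counting error is small at these depths beside the spread between replicates. No libraries agreed within sampling noise. The members and lists were chosen with earlier results of these data known, and by the rule for named genes they are the 4 genes, the measured genes of the pathway and regulator lists, and for each of the 4 the 3 most similar profiles among genes with a mean FPKM of 1 or more. *Acsl1*, *Lpl* and the cell type markers were named besides.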

Additional observations from a re-analysis of the deposited data

How the results depend on the processing

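All 4 genes kept a positive log2 fold change under each of their 20 alternatives. *Gpd1* and *Lpin1* were called under each of the 12 alternatives that kept all 6 libraries, with log2 fold changes from 4.23 to 6.79 and from 2.69 to 3.40. Without single libraries *Gpd1* ranged from 5.04 to 6.26 and *Lpin1* from 2.88 to 3.34, called in 1 fit of 6, and over all alternatives their adjusted p ran from 1.22e-29 to 0.3 and from 4.12e-17 to 0.243. *Gpam* ranged from 1.23 to 2.13 and *Dgat1* from 0.51 to 1.77 without single libraries, with adjusted p-values up to 0.538 and 0.768 over all alternatives. With voom and sample quality weights, which gave NJT-2 replicate 2 the lowest weight (0.13) and Control replicate 1 the next lowest (0.141), *Gpam* (2.44) and *Dgat1* (1.95) were called. Both were also called without Control replicate 1 and NJT-2 replicate 2 together (2.2 and 2.29), and *Gpam* with DESeq2 without NJT-2 replicate 2 (2.15), alternatives chosen after seeing the data.

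The number of called genes was 26 (21 higher, 5 lower), 289 with DESeq2 (163 higher, 126 lower), 727 with voom, 57 with the replicate block, 482 without the 2 libraries together, 450 with DESeq2 without NJT-2 replicate 2, and from 0 (421 genes at an unadjusted p under 0.05 in edgeR, without Control replicate 2) to 75 without single libraries. The cause of these differences was not tested. Whether the replicate numbers pair the libraries could not be settled. Same-numbered deviations from the group means correlated at 0.179, 0.032 and -0.208, over only 3 libraries per group and with 1 in each standing apart. With the block *Gpd1* and *Lpin1* stayed called (adjusted p = 0.000617 and 0.00471 in edgeR) and *Gpam* and *Dgat1* did not. The difference in the log2 ratio of *Gpam* to *Dgat1* ran from -0.36 without Control replicate 1 to 0.73 without single libraries, and the other ratios kept their sign, with *Gpam* to *Lpin1* from -2.53 to -1.21 and *Lpin1* to *Dgat1* from 1.47 to 2.86. With library totals in place of TMM, the median of all genes was 0.159 and *Gpd1* and *Lpin1* were at 5.95 and 3.24. Only the first part of the table was analysed, so that other steps of the pathway could not be described.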
